A study of Mus musculus with 6 samples.

Results

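The genes described here encode 4 complexins (Cplx1, Cplx2, Cplx3 and Cplx4), 3 SNARE proteins (Snap25, Vamp1 and Vamp2) and 2 proteins of the synaptic vesicle membrane (Syp and Sv2b). They were chosen by symbol, and all 9 were among the 15465 genes of the deposited tables. RNA sequencing was done on isolated retina of C57BL6/J mice of wild-type genotype, with each library pooled from 5 animals. No age, treatment or other genotype enters, and there was 1 group, so no condition is compared. The sample titles give 3 biological replicates, each run as 2 technical replicates whose values share 1 column, so n was 3. The source labels number the samples differently and would pair them across the titles' replicates. If they were right, the columns would share material, and the SDs below rest on the titles.

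Synaptic vesicles fuse when a SNARE of the vesicle, a VAMP, zips together with SNAP25 and a syntaxin of the plasma membrane. Complexins are small proteins that bind the half-assembled SNARE complex and hold it ready until calcium arrives. In the retina, photoreceptors and bipolar cells release glutamate continuously from ribbon synapses, where vesicles line a plate-like ribbon, while amacrine cells use conventional synapses without one. Cplx3 and Cplx4 are known as the complexins of retinal ribbon synapses, with Cplx3 also in some amacrine cells, and Cplx1 and Cplx2 as those of conventional synapses. In whole retina the cell types were not separated, and fewer cells of a type and less RNA per cell cannot be told apart.

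The ends of the coding sequences are given for Cplx3, a ribbon complexin, and for both conventional complexins; that of Cplx4 is not shown. Each line gives the last codons and the stop codon of GENCODE M21 transcripts on GRCm38, 5′ to 3′ on the coding strand, with the last 4 codons before the stop in capitals. They are shown because Cplx3 is known to end in a farnesylation box, the signal for a lipid anchor that starts with a cysteine, which Cplx1 and Cplx2 lack.
Cplx3: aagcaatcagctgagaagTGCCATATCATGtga
Cplx1: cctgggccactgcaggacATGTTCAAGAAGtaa
Cplx2: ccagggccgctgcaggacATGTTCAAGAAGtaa
The Cplx3 stretch lies at chr9:57602237-57602269 on the minus strand, that of Cplx1 at chr5:108520129-108520161 on the minus strand and that of Cplx2 at chr13:54379677-54379709 on the plus strand, each in the last coding exon. The first capital codon of Cplx3 encodes cysteine, and those of Cplx1 and Cplx2 do not. Cplx1 and Cplx2 have the same 4 capital codons. The coding sequences hold 158 codons before the stop in Cplx3 and 134 in both Cplx1 and Cplx2.

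Paralogs with long identical stretches could share reads, so the longest identical run between transcripts was measured. It was 12 bases between Cplx3 and Cplx4, and 12 to 14 bases between either of these and Cplx1 or Cplx2. The longest run, 32 bases, was shared by Cplx1 and Cplx2. It is printed because reads inside it could come from either gene.
Cplx1 and Cplx2: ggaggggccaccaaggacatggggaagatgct
This run crosses an intron in both genes, spanning chr5:108525540-108548509 on the minus strand in Cplx1 and chr13:54378696-54378839 on the plus strand in Cplx2 (GRCm38). The run was 18 bases between Vamp2 and Vamp1, 25 between Snap25 and Snap23, 15 between Sv2b and Sv2a, 26 between Sv2b and Sv2c and 26 between Syp and Synpr. On the annotation, exons of Syp overlapped those of Gm14703 on the opposite strand by up to 875 bases, and Sv2b overlapped 1500012K07Rik by 47 bases. Whether counting used strand is not given in the sources used here, so reads of those pairs could not be told apart, and the levels of Syp and Sv2b are less certain. The other 7 genes overlapped no exon of another gene.

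All values are taken as RPKM, reads scaled by gene length and by sequencing depth, so that levels of different genes can be set side by side. The values of a replicate summed to between 249532 and 302634 RPKM, lowest in replicate 3 and highest in replicate 2, and their read depth is unknown. Levels below are as deposited unless called scaled. A gene lowest in replicate 3 or highest in replicate 2 may therefore follow this difference between whole replicates. Retinal markers were present, with the rod transducin Gnat1 between 4801 and 5458 RPKM and the ON bipolar receptor Grm6 between 41.2 and 50.8. The 5 ganglion cell markers summed to between 322 and 377 RPKM and the 4 amacrine markers in the tables to between 181 and 221. Lens markers, 7 of 7 detected, summed to 568, 257 and 1518 RPKM in replicates 1, 2 and 3. Crygb, Crygc and Crygd made up most of these sums. Each lens marker except Mip was lowest in replicate 2 and highest in replicate 3, so most were unequal between the pools. Mip varied little, with 41.38, 34.95 and 40.77 RPKM. Pigment epithelium markers, 4 of 4 detected, summed to 240.2, 236 and 136 RPKM, lowest in replicate 3. Among them Rpe65 went otherwise, with 6.25, 20.06 and 6.74 RPKM, highest in replicate 2. Surface epithelium markers summed to between 7.74 and 16.4 RPKM and skeletal muscle markers to between 5.88 and 21.2 RPKM. The part of these differences in the results below was not tested.

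Ribbon complexins exceeded conventional complexins in whole retina. Cplx3 and Cplx4 together had 350, 430 and 337 RPKM in replicates 1, 2 and 3, and Cplx1 and Cplx2 together had 108, 114 and 94.3 RPKM. The sums did not overlap. The ribbon complexins were higher by 1.82 ± 0.11 on the log2 scale of RPKM + 0.1 (SD, n = 3), a factor of 3.52 that lay between 3.25 and 3.78 in single replicates. The direction held in 3 of 3 replicates, and an exact two-sided sign-flip test gave p = 0.25, the smallest that 3 replicates allow. Ribbon complexins thus held 77.9% ± 1.32 of the complexin RPKM.

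Cplx4, which is known from rod and cone terminals, had 198, 262 and 207 RPKM (mean 222 ± 34.3, n = 3). It was the highest complexin in 3 of 3 replicates, and 99.4% of all genes had a lower mean. Cplx3, found in cone and rod bipolar terminals, had 152, 168 and 129 RPKM (149.7 ± 19.7). Its values did not overlap those of Cplx4, which stood 1.48-fold above it, by 0.57 ± 0.16 on the log2 scale. Cplx4 held 46.5% ± 2.76 of the complexin RPKM and Cplx3 31.4% ± 1.61.

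Cplx1 had 69.7, 76.7 and 53.6 RPKM (66.7 ± 11.8), with replicate 3 lowest. Cplx2 had 37.8, 37.0 and 40.7 RPKM (38.5 ± 1.94), with replicate 3 highest. Both conventional complexins were below both ribbon complexins in every replicate. The 4 ratios of a ribbon to a conventional complexin were 1.17 ± 0.08 for Cplx3 over Cplx1, 1.74 ± 0.22 for Cplx4 over Cplx1, 1.95 ± 0.26 for Cplx3 over Cplx2 and 2.52 ± 0.26 for Cplx4 over Cplx2, all on the log2 scale. Cplx1 exceeded Cplx2 in each replicate, by 0.88, 1.05 and 0.40 on the log2 scale in replicates 1, 2 and 3. Its SD, 0.34, was the widest among the ratios between complexins. Cplx1 held 13.9% ± 1.41 of the complexin RPKM and Cplx2 8.17% ± 1.32.

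**Figure D1:**
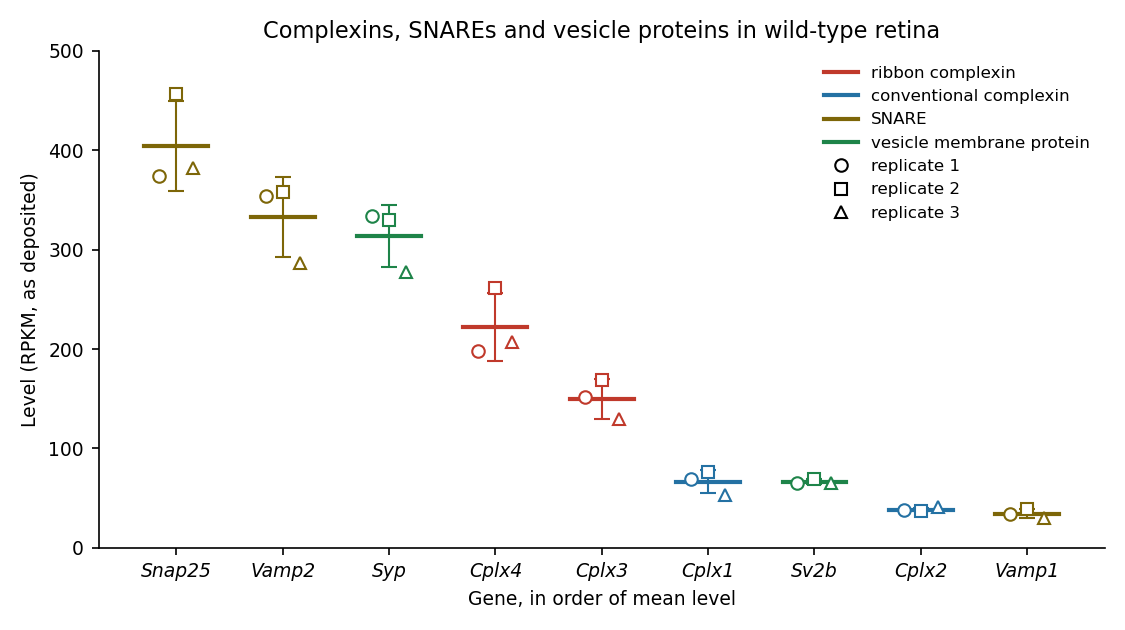
Level of the 9 genes in RPKM as deposited, in order of their mean. Open symbols are the 3 replicates, the horizontal line is their mean and the bar their SD. The ribbon complexins Cplx4 and Cplx3 lie between 129 and 262 RPKM, above all values of the conventional complexins Cplx1 and Cplx2, which lie between 37.0 and 76.7.

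Snap25, Vamp2 and Syp each stood above every single complexin, while Vamp1 and Sv2b did not. Snap25, the neuronal plasma membrane SNARE, had 374, 456 and 382 RPKM (404 ± 45.1, n = 3) and was the 39th gene of the retina by mean level. Vamp2, the main vesicle SNARE of brain synapses, had 354, 358 and 287 RPKM (333 ± 40). Syp, the abundant vesicle membrane protein synaptophysin, had 333, 330 and 278 RPKM (314 ± 31.2). Both Vamp2 and Syp were lowest in replicate 3, where the summed values were also lowest. After scaling the replicates to each other, Vamp2 had 361, 328 and 307 RPKM and Syp 339, 303 and 297.

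Sv2b, a transporter-like vesicle glycoprotein reported at photoreceptor ribbon synapses, had 65.7, 69.1 and 64.9 RPKM (66.6 ± 2.21). It had the smallest relative spread of the 9 genes as deposited, with an SD of 3.32% of its mean. Vamp1, a second synaptobrevin, had 33.8, 38.8 and 30.4 RPKM (34.3 ± 4.25) and was the lowest of the 9 genes by mean. Even so, 89.7% of all genes had a lower mean than Vamp1.

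The order by mean level was therefore Snap25, Vamp2, Syp, Cplx4, Cplx3, Cplx1, Sv2b, Cplx2 and Vamp1. Neighbours were called apart when their 3 values did not overlap and 1 of them was higher in 3 of 3 replicates. This held for 5 of 8 neighbouring pairs, and the gap between Cplx3 and Cplx1, a factor of 2.26, was the widest. Vamp2 and Syp overlapped, although Vamp2 was higher by 0.08 ± 0.04 on the log2 scale in 3 of 3 replicates. Cplx1 and Sv2b did not differ beyond their spread, with a log2 ratio of -0.01 ± 0.23, nor did Cplx2 and Vamp1, with 0.17 ± 0.25. After scaling the replicates to each other, the number of pairs apart was again 5. With any 1 replicate left out it was between 5 and 7, but fewer replicates make the rule easier to meet.

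The 4 complexins summed to 457, 544 and 431 RPKM in replicates 1, 2 and 3. Vamp1 and Vamp2 summed to 388, 396 and 317 RPKM. In each replicate the complexins thus exceeded these vesicle SNAREs. The 9 genes together made up between 0.587% and 0.593% of the summed RPKM.

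Within each family the named member was set against its paralogs. Vamp2 exceeded Vamp1 by 3.27 ± 0.10 on the log2 scale, a factor of 9.67, and held 79.8% ± 1.75 of the RPKM of 7 Vamp genes. Vamp8, known for secretion in non-neuronal cells, had 26.7, 35.8 and 21.1 RPKM (6.61% of the family), close to Vamp1 (8.23%). Vamp7 was listed at 0 in all 3 replicates, as were 149 genes in all. No transcript length was found under that symbol, so absent RNA and a symbol that drew no reads cannot be told apart.

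Snap25 exceeded Snap23, its relative in most other tissues, by 7.04 ± 0.18 on the log2 scale, a factor of 132. Snap23 had 2.61, 3.06 and 3.23 RPKM. Snap47, a further SNAP25 relative, had 79.7, 89.1 and 63.5 RPKM, which made it 15.8% ± 1.67 of the family, against 82.8% ± 1.52 for Snap25.

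The Sv2 family was the exception, since the member named as the ribbon form was not the highest. Sv2b stood below Sv2a in 3 of 3 replicates, by -0.44 ± 0.13 on the log2 scale, a factor of 0.738. Sv2a, the most widespread form in the brain, had 98.0, 92.3 and 81.1 RPKM, all above the values of Sv2b. Sv2b held 41.3% ± 2.09 of the family and Sv2a 56.0% ± 2.21. Sv2c had 4.63, 4.03 and 4.61 RPKM and lay 14.8-fold below Sv2b.

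Syp exceeded its relative Synpr, synaptoporin, by 2.56 ± 0.19 on the log2 scale, a factor of 5.91. Synpr had 48.4, 60.6 and 50.1 RPKM, with replicate 2 highest, while Syp was lowest in replicate 3. Syp held 61.5% ± 0.241 of the synaptophysins and synaptogyrins, the smallest SD among the leading shares of the 5 families. Syngr1, a synaptogyrin, followed with 20.2% ± 1.44.

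**Figure D2:**
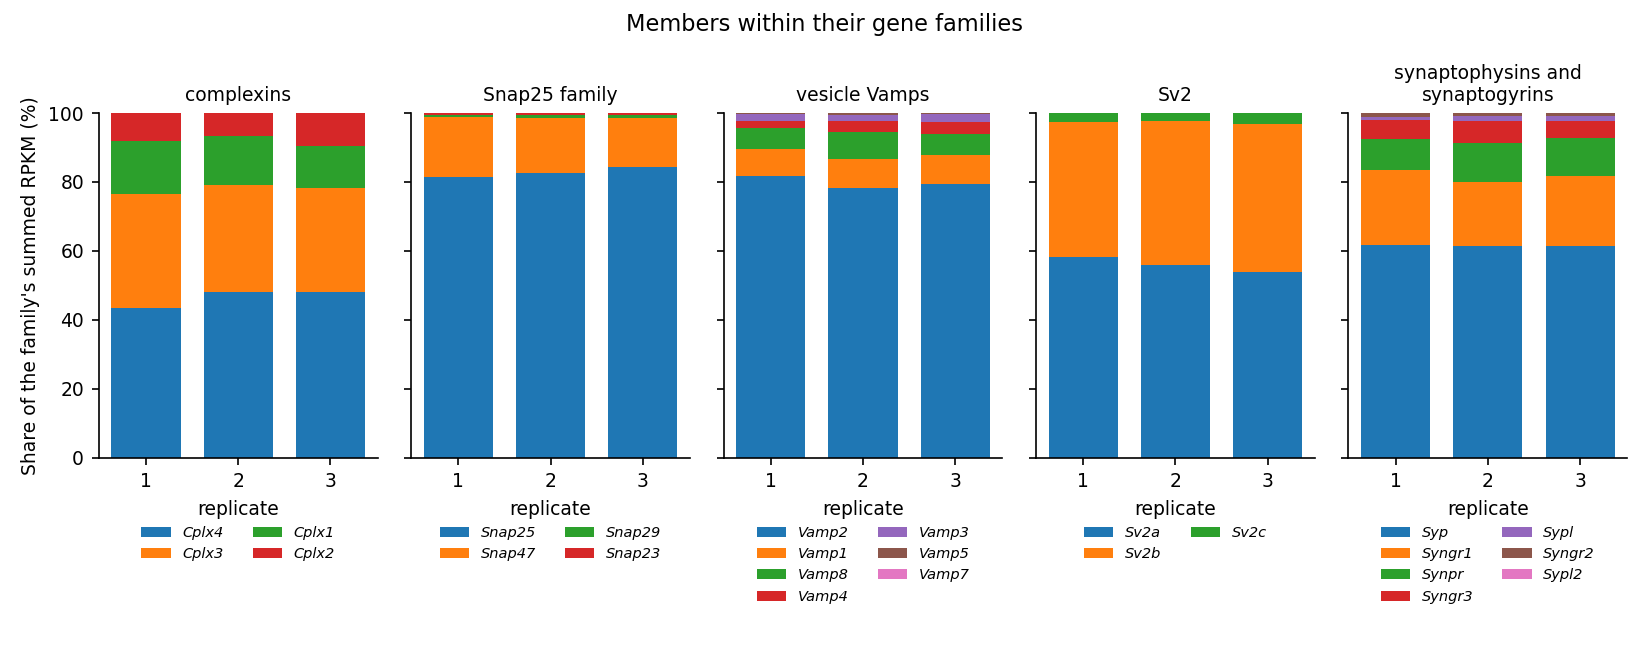
Share of each gene in the summed RPKM of its family, in percent, with 1 stacked bar for each of the 3 replicates and 1 panel for each of 5 families. Cplx4 and Cplx3 fill 76.5% to 79.1% of the complexin bars, and Sv2a rather than Sv2b fills the larger part of the Sv2 bars.

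Other release genes with forms reported at ribbon synapses were compared in the same way. Stx3, the syntaxin of photoreceptor and bipolar ribbon synapses, had 131, 140 and 120 RPKM (130.5 ± 10.3). It exceeded Stx1a, the classical syntaxin of conventional synapses, by 4.15 ± 0.10 on the log2 scale, a factor of 17.7. Stx1a had 7.29, 8.39 and 6.23 RPKM. The levels of Stx3 and Stx1a did not overlap.

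Unc13b and Unc13a are priming factors that open the syntaxin for SNARE assembly, and an Unc13b product is known from photoreceptor terminals. Unc13b had 30.0, 31.3 and 34.2 RPKM and Unc13a 25.0, 23.7 and 23.7 RPKM. Unc13b was higher by 0.39 ± 0.13 on the log2 scale in 3 of 3 replicates. All 14 isoform ratios kept 1 sign in 3 of 3 replicates, and each had an exact sign-flip p of 0.25, which stayed 0.25 after Benjamini-Hochberg adjustment over the 14.

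The gene lengths by which the authors divided are unknown here. Multiplying back by transcript length gives the share of reads rather than the level, and on that scale 3 ratios turned sign, at -0.09 for Cplx4 over Cplx3, -0.39 for Cplx1 over Cplx2 and -0.63 for Unc13b over Unc13a. Sv2b over Sv2a kept its sign on average but came within its SD of equal, at -0.12 ± 0.13 (-0.44 before). Ribbon complexins stayed above conventional ones, at 1.30 on the log2 scale. The excess shrank by more than 1.5-fold for Cplx3 over Cplx2 (1.17), Cplx4 over Cplx2 (1.08), Sv2b over Sv2c (3.16) and Snap25 over Snap23 (6.27).

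**Figure D3:**
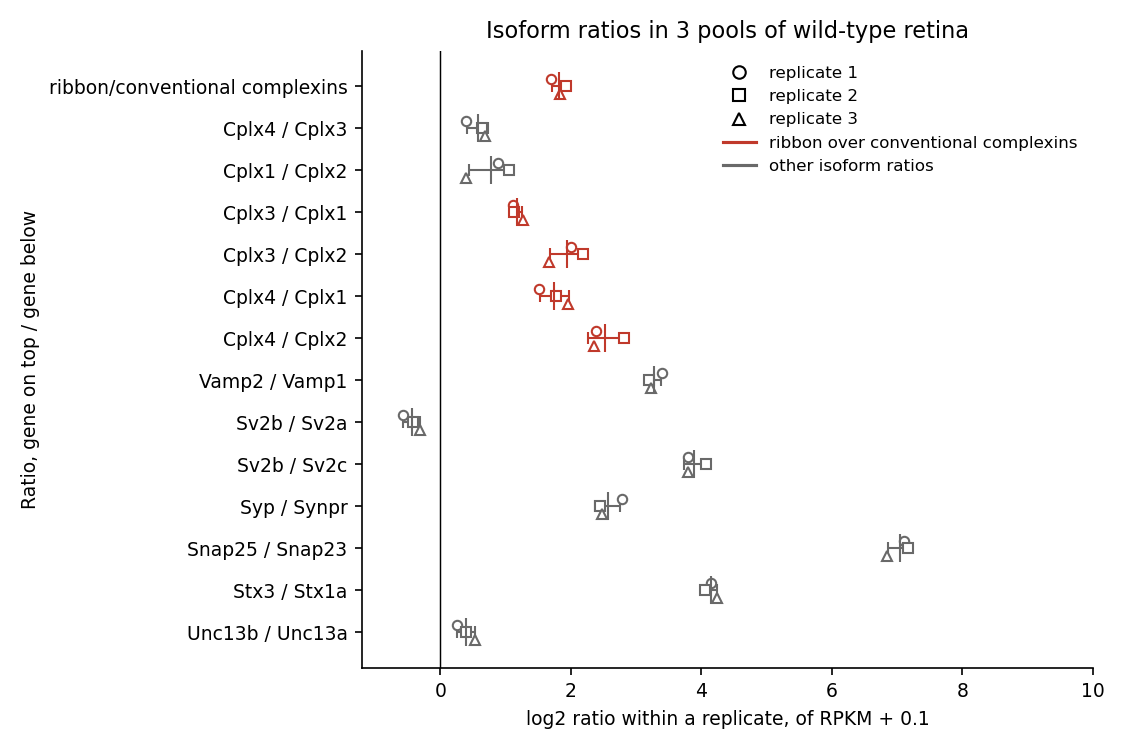
Log2 ratios within each replicate, of RPKM + 0.1, with symbols for the 3 replicates and a bar for mean and SD. Ratios of ribbon over conventional complexins, in red, lie between 1.12 and 2.82, and Sv2b over Sv2a is the 1 ratio below 0.

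The 9 genes were then read beside 6 lists of other release and vesicle genes, 101 in all, of which 100 were in the tables. Of these, 94 had 1 RPKM or more in every replicate, as did all 9 members, against 77.5% of all genes. The median level was 149.7 RPKM for the 9 members and 6.26 RPKM for all genes. The members are well-known markers, and their high median describes that choice.

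Plasma membrane SNAREs beside Snap25 had a median of 7.30 RPKM and were led by Stx3 and Snap47. The vesicle SNAREs of other compartments had a median of 10.3 RPKM, with the endosomal Vti1b (29.6 ± 5.53), Vamp8 (27.9 ± 7.42) and Ykt6 (25.6 ± 2.89) first. In level all 8 lay below Vamp1, the lowest member by mean.

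Genes of SNARE assembly and release had a median of 24.2 RPKM. The highest was Sncb, beta-synuclein, with 305, 327 and 218 RPKM. Rab3a, the vesicle GTPase, had 258, 287 and 189 RPKM. Both were lowest in replicate 3, as deposited and after scaling, and their levels lay in the range of the members Cplx3 to Snap25.

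Genes of the vesicle membrane had a median of 22.3 RPKM. Slc17a7, the vesicular glutamate transporter of ribbon-bearing neurons, had 767, 717 and 604 RPKM and was above every member in each replicate. Scamp5 followed with 172, 173 and 146 RPKM and Syngr1 with 116, 100.4 and 91.5 RPKM. Synapsins, chosen after their values were seen because they are known to be missing from ribbon synapses, had means of 34.6 ± 7.25 (Syn1), 7.87 ± 0.848 (Syn2) and 2.23 ± 0.142 (Syn3). Syn1 had 38.0, 39.5 and 26.3 RPKM, which overlapped Cplx2 and lay above it in 2 of 3 replicates. Endocytosis genes, which retrieve vesicle membrane, had a median of 43.9 RPKM and were led by Dnm1 (171 ± 16.9), Clta (130 ± 30.3) and Bin1 (114 ± 10.3).

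**Figure D4:**
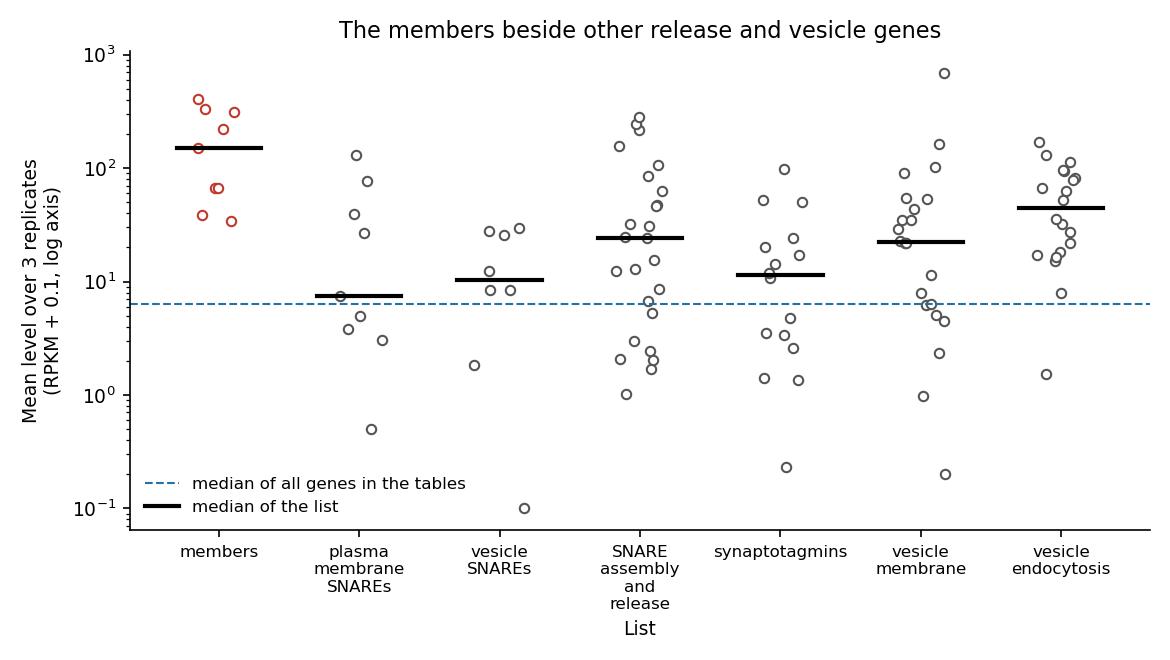
Mean level over 3 replicates as RPKM + 0.1, on a log axis, for the 9 members and for each gene of 6 further lists. Black lines are list medians and the dashed line is the median of all genes. The members have a median of 149.7 RPKM and all genes one of 6.26.

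Last, the spread of each gene between the pools was compared with that of genes of similar level, in 1 test over the 12562 genes whose mean reached 1 RPKM (limma's robust trended prior, Benjamini-Hochberg adjusted p under 0.05). The test called 5.42% of all genes and 0 of the 9 members, whose adjusted p was 0.993 or more. Unadjusted, 0 of the 9 were under 0.05, and their p lay between 0.35 and 0.868. On the log2 scale after scaling, the SD was lowest at 0.07 in Vamp1, Sv2b and Snap25. It was highest in Cplx2 (0.18) and Cplx1 (0.17), and the median over all genes tested was 0.15. The scaled values of Cplx1 were 71.0, 70.4 and 57.4 RPKM, and those of Cplx2 38.5, 34.0 and 43.6 RPKM. Replicate 3 had the lowest Cplx1 and the highest Cplx2, and also the highest sum of lens markers and the lowest of pigment epithelium markers. The part of lens or pigment epithelium RNA in this was not tested. None of the members was called with the non-robust prior, without scaling, with another pseudocount or with no filter. Nor was any called without symbols that extend another symbol by a digit and the symbols so extended, or with any replicate left out.

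The synaptotagmins, the calcium sensors of release and their relatives, had a median of 11.2 RPKM. Among the 94 genes of the 6 lists that were tested, 2 were called, both synaptotagmins. Syt13 had 135, 2.34 and 154 RPKM (adjusted p = 2.028e-05 by limma) and Syt15 4.87, 142 and 4.47 RPKM (adjusted p = 3.376e-05 by limma). Each had replicate 2 apart from the other replicates by more than 10-fold, and in opposite directions. With limma's non-robust prior the number called was 0 of 12562, and 707 had p under 0.05 before adjustment. Without replicate 2 neither synaptotagmin was called. Both have symbols that begin with another gene's symbol, Syt1, followed by a digit. Such digit-extended symbols, counted here together with the shorter symbols they extend, made up 2656 of the 15465 genes and 626 of the 681 called. The rows of Syt1 and its longer namesakes are less certain for that reason. None of the 9 members has such a symbol. Syt1 itself, the main fast calcium sensor of brain synapses, had 50.8, 57.2 and 47.6 RPKM.

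Without these symbols 0.945% of 10474 genes were called, and again 0 of the 9 members.

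**Figure D5:**
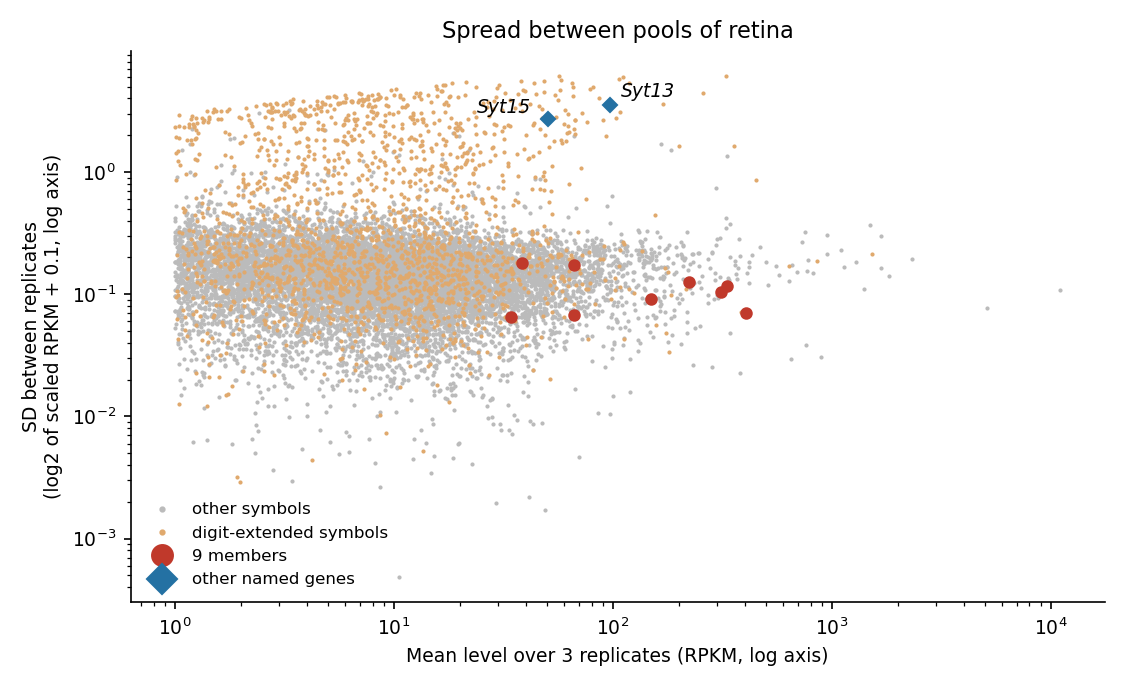
SD between replicates on the log2 scale of scaled RPKM + 0.1 against mean level in RPKM, both axes logarithmic, for 12562 genes. The 9 members lie between 0.07 and 0.18, and all but Cplx1 and Cplx2 lie below the median of 0.15 over all genes tested. Syt13 and Syt15 lie among the high points of digit-extended symbols.

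With 1 group of 3 pools, likeness to other genes could be read only from level. By the root mean square difference of log2 values over the 3 replicates, the nearest genes to Cplx3 were Dtx3, Raly and Plk5, within 0.05. Among the nearest to Cplx4 were Gm11744 (0.05) and the retinaldehyde-binding protein gene Rlbp1 (0.11).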

How the data were processed

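Retinal RNA was sequenced in 6 samples, which per the labels form 3 biological replicates of 5 pooled mice. GSNAP and HTSeq were used on genome build mm9, per the submitters' processing notes, which name no versions. The authors deposited 1 column per biological replicate, taken here as RPKM from the values, since neither header nor label names the unit. The values could equally be FPKM, depth is unknown and no interval that needs it is given. Of 15468 rows, 3 symbols stood on 2 rows each with identical values and were kept once.

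Ratios were taken within replicates on log2(RPKM + 0.1), which understates differences of low genes, and tested by an exact two-sided sign-flip test. The spread test used limma 3.58.1 (R 4.3.3) after scaling by a mean of log ratios trimmed by 30% at each end. It was an F test of each gene's variance against its prior. It was also run on simulated data, whose spread was drawn from its own prior. Such data cannot show whether that prior suits the real genes. Folds come from mean log2 ratios. Transcript lengths (median over transcripts linked to RefSeq) and sequences came from GENCODE M21 on GRCm38. They were not used to place the authors' values.

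Named from the lists were the 3 highest genes of each, the paralogs in the ratios and genes called in the spread test. Vamp7 and the synapsins Syn1, Syn2 and Syn3 were named outside these rules, the synapsins after their values were seen. The members, lists and tests were chosen with earlier results of these data known. P-values of the spread test set each gene's spread between these pools against its prior. The sign-flip p does not measure spread, since it is the same whenever all 3 replicates share a sign. A few genes of the lists and 1 of the 14 isoform ratios are not reported here.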

Additional observations from a re-analysis of the deposited data

How the results depend on the processing

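Multiplying by transcript length gave 1.30 on the log2 scale for ribbon over conventional complexins (1.82 before). Their share of the complexin sum so multiplied was 71.1%, against 77.9% of the complexin RPKM. It turned Cplx4 over Cplx3 (-0.09), Cplx1 over Cplx2 (-0.39) and Unc13b over Unc13a (-0.63). That scale undoes the division by length. The other settings changed the pseudocount, averaged the complexins otherwise or left a replicate out. They could not turn a ratio that kept 1 sign in all 3 pools, so its sign was not tested by them. With a replicate left out, ribbon over conventional complexins stayed between 1.77 and 1.88. The number of genes varying between replicates was 681, with 0 under the non-robust prior, 99 without digit-extended symbols, and 302 (without replicate 2), 444 (without replicate 3) and 481 (without replicate 1) with a replicate left out. The cause of these differences was not tested, and 0 of the 9 members were called in any of them. No paired analysis was possible because there was 1 group. All alternatives were planned, but with earlier results of these data known. With 3 pools a sign-flip test cannot pass 0.05, and with unknown depth the counting error of a single value cannot be given.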
